A study of Homo sapiens with 27 samples.

Results

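The interleukin 1 and interleukin 6 cytokine family was followed across growth and stress states of IMR90, a line of human fetal lung fibroblasts. The 8 genes were taken by name: the interleukin 6 family ligands IL6, IL11 and LIF, their shared receptor subunit IL6ST, the interleukin 1 family ligands IL1A, IL1B and IL33, and the receptor IL1R1. They are 8 of 60534 gene IDs present in every count table, of which 19303 were protein coding, and all 8 passed the filter on low counts in both assays. In Ribo-seq, IL33 passed it only through the etoposide libraries, where it was high. There were 27 libraries of 5 states. RNA-seq, with 13 libraries, measured mRNA, and ribosome profiling (Ribo-seq), with 14, sequenced the mRNA fragments covered by ribosomes. Cycling cells (2 RNA-seq and 3 Ribo-seq libraries) were untreated and harvested at 40 to 60% confluency. Quiescent cells (3 and 3) are labelled as such after contact inhibition. Irradiated senescent cells (3 and 3) had received 15 Gy of ionizing radiation and were kept for 10 days. Etoposide senescent cells (3 and 3) had received the topoisomerase II inhibitor etoposide at 50 µM, 3 times over 10 days. Thapsigargin-treated cells (2 and 2) were cycling cells at 40 to 60% confluency given 25 nM thapsigargin, an inhibitor of the calcium pump of the endoplasmic reticulum, for 3 h. All cells were IMR90, labelled wild type except that the thapsigargin libraries carry no genotype label. The thapsigargin cells were grown in a medium described without the antibiotics listed for the other states. The labels do not say whether the replicates were separate cultures, so p-values measure the spread between these libraries, which may be technical.

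Interleukin 1 alpha and beta bind IL1R1, which recruits the accessory protein IL1RAP and signals through MYD88 and IRAK kinases to the transcription factor NF-kappaB. Ligands of the interleukin 6 family share IL6ST (gp130), which signals with further receptor subunits through JAK kinases and STAT3. In senescent fibroblasts these cytokines are known as parts of the senescence-associated secretory phenotype, in which interleukin 1 alpha is known to act upstream of IL6 and the chemokine CXCL8. Interleukin 33 is a nuclear interleukin 1 family member released on cell damage.

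Gene counts per library ran from 20635503 to 57119841 in RNA-seq and from 1936976 to 19996104 in Ribo-seq, where the 2 thapsigargin libraries were the shallowest. Unmapped reads made up 1.35 to 1.40% of the thapsigargin RNA-seq libraries and 27.8 to 40.6% of the others, and reads mapping to several places made up 65.2 to 66.9% of the thapsigargin Ribo-seq libraries and 19.8 to 31.9% of the others. The thapsigargin treatment and the handling of its libraries cannot be told apart. All 11 fibroblast markers reached 1 CPM (counts scaled to 1000000 per library). None of the 8 macrophage and monocyte markers did in any RNA-seq library, and their summed level was 1.71 to 2.05 CPM in etoposide cells and at most 0.703 CPM elsewhere. The summed level of 7 epithelial markers was 107 to 111 CPM in thapsigargin, 17.3 to 25.0 in cycling and 2.69 to 3.78 in etoposide RNA-seq, and that of 6 endothelial markers was 57.4 to 90.4 CPM in etoposide, 18.2 to 24.5 in cycling and 4.98 to 5.32 in thapsigargin RNA-seq. Of the epithelial markers only KRT19 (at most 96.3 CPM) and CLDN4 (at most 17.6) reached 1 CPM in any RNA-seq library. Of the endothelial markers only TEK (at most 88.3 CPM) and VWF (at most 2.53) did. Fibroblast markers summed to 15178 to 15821 CPM in thapsigargin and 46191 to 50422 CPM in cycling Ribo-seq. The part of these shifts in the results below was not tested. In bulk samples, fewer cells making a transcript and less transcript per cell cannot be told apart. The proliferation marker MKI67 fell by 3.41 (irradiated) and 4.60 (etoposide) on the log2 scale against cycling cells, and the cell cycle inhibitor CDKN1A rose by 1.69 and 1.94. In quiescent cells neither was called: MKI67 differed by -0.94 ± 0.43 (adjusted p = 0.17), at 81.0 ± 58.5 CPM against 155 ± 16.1, and CDKN1A by 0.43 ± 0.15 (adjusted p = 0.0724). In thapsigargin cells DDIT3, a transcription factor of the stress response of the endoplasmic reticulum, rose by 3.44.

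The upstream stretches of 4 ligand genes are shown because their levels moved differently across the states. Each is the 250 bases before a RefSeq transcript start on GRCh38.p14, written 5′ to 3′ on the gene's own strand in lower case, with motif matches in capitals.
IL6, chr7:22726950-22727199, plus strand: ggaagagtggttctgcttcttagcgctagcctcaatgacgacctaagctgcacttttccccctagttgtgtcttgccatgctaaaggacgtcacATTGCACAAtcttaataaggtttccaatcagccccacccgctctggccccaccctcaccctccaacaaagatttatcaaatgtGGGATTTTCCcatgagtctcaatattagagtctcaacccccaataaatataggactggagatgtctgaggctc
IL11, chr19:55370464-55370713, minus strand: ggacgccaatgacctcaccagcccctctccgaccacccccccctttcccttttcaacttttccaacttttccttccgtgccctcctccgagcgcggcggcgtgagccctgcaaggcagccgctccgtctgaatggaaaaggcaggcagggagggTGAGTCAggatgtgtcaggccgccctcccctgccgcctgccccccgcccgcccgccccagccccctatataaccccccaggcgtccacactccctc
IL1A, chr2:112784494-112784743, minus strand: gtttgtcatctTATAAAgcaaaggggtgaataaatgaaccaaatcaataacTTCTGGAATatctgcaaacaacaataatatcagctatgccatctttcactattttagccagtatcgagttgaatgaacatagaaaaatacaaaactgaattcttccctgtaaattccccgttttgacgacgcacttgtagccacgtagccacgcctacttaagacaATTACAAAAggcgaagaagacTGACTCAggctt
IL1B, chr2:112836780-112837029, minus strand: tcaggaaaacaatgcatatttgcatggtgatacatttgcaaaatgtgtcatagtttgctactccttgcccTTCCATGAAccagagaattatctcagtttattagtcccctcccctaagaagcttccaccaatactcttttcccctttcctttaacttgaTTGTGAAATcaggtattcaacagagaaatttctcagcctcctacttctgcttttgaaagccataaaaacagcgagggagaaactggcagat

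The IL6 stretch held an NF-kappaB site, GGGATTTTCC, at -73 to -64 from the start (the start is position 1, and the base before it is -1). It also held a C/EBP motif (TTNNGNAAT, here on the opposite strand) at -156 to -148. The IL11 stretch held an AP-1 motif (TGANTCA) at -96 to -90 and no match to the other motifs searched. In the IL1A stretch an AP-1 motif lay at -12 to -6, with C/EBP motifs at -199 to -191 and -33 to -25 and a TATA box (TATAAA) at -239 to -234. These positions depend on the start used, because IL1A had another RefSeq start whose stretch is not shown. From that start the same AP-1 motif lay at -105 to -99 and a further one at -55 to -49, with no TATA box match. The IL1B stretch held a STAT motif (TTCNNNGAA) at -180 to -172 and a C/EBP motif at -91 to -83. Both strands were searched, and a cyclic AMP response element (TGACGTCA) and the CHOP and ATF4 composite element (TGATGNAAN) were searched as well and not matched in any member's window. Of all 35116 RefSeq windows of 300 bases (the 250 bases plus 50 after the start), 11.3% held an NF-kappaB site, 11.0% a C/EBP motif, 7.71% AP-1, 7.66% STAT, 11.5% a TATA box, 1.85% the cyclic AMP element and 3.61% the composite element. A match describes letters in these windows and no binding was measured. Windows were found for 7 of the 8 members, and LIF had none in the table.

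Etoposide cells had higher mRNA of IL6, IL1B, IL33 and LIF than cycling cells, and more footprints of the same genes and of IL6ST. Irradiated cells, also senescent by MKI67 and CDKN1A, had higher IL6 mRNA, lower IL1B and IL11 mRNA and higher IL1R1 mRNA. Thapsigargin cells had higher IL6, IL11 and LIF mRNA and lower IL1A, IL1B and IL1R1 mRNA. Some of these calls were lost in refits that left out a library. They were IL1B mRNA and LIF and IL6ST footprints in etoposide cells, and IL1B and IL1R1 mRNA in irradiated cells. The thapsigargin calls of IL6, IL11 and IL1A mRNA were lost in such refits too. The values follow by role. They are CPM after scaling for library size and composition (TMM), which can be compared between states for one gene but not between genes. Changes are log2 fold changes from edgeR ± SE, with p-values adjusted over all genes tested, and a gene was called at an adjusted p under 0.05. The SE was calculated back from the test, as the size of the log2 fold change divided by the square root of the F statistic.

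**Figure D1:**
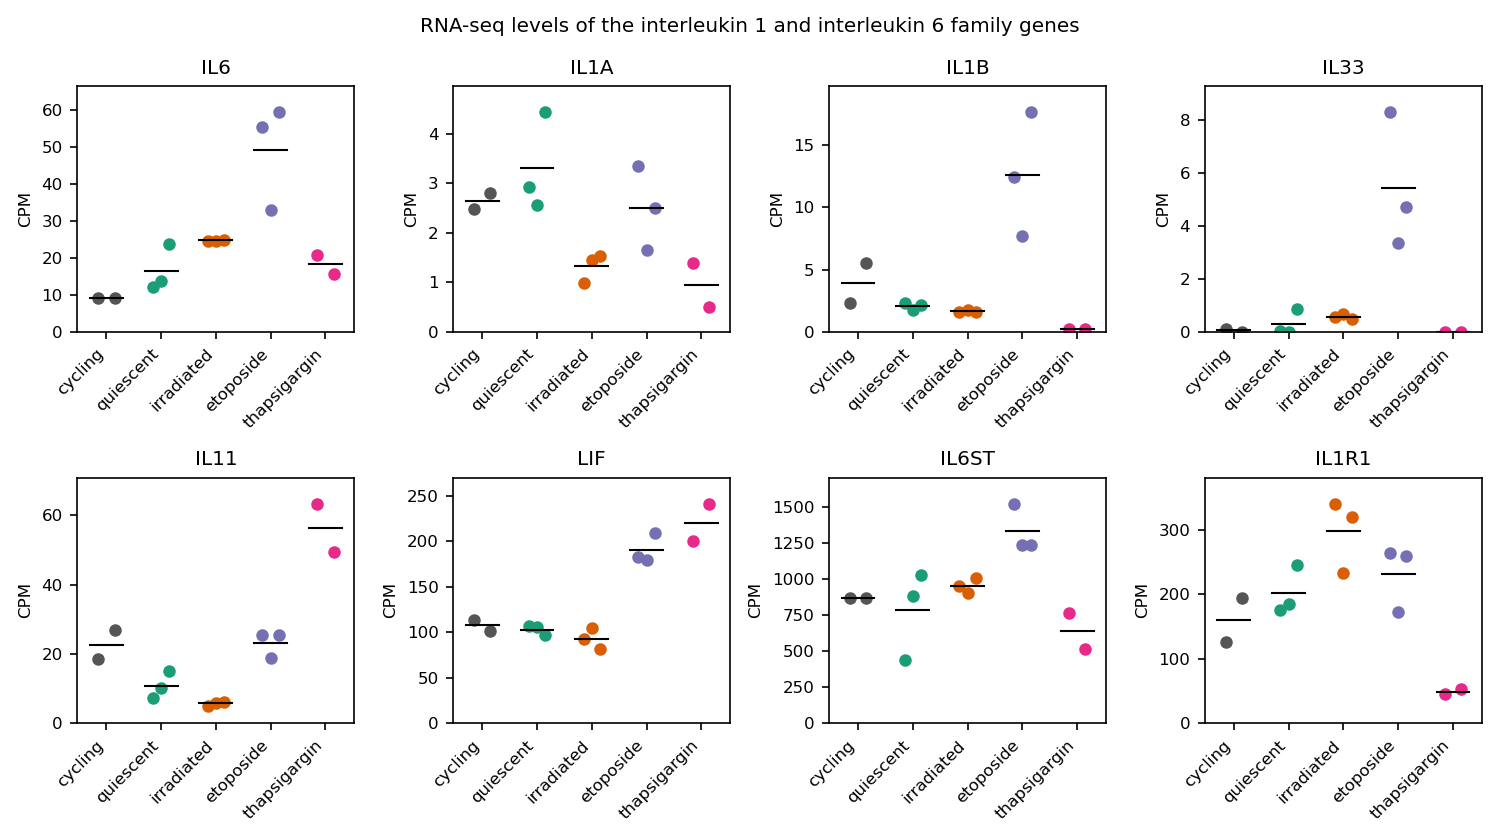
RNA-seq level of each gene (vertical axis, CPM, linear from 0) in the 5 states; points are libraries and black lines are state means. IL6, IL1B and IL33 are highest in the 3 etoposide libraries, and IL11 is highest in the 2 thapsigargin libraries.

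IL6 (ENSG00000136244, chr7:22727200-22731998) encodes the founding ligand of its family, a major secreted product of senescent fibroblasts. Cycling libraries held 9.09 and 9.24 CPM of its mRNA, quiescent ones 12.1, 13.8 and 23.7, and irradiated ones 24.6, 24.6 and 24.8. Etoposide libraries held 55.6, 33.1 and 59.5 CPM and thapsigargin ones 20.9 and 15.6. Every etoposide library lay above every library of the other states, and both cycling libraries lay below all others. Against cycling cells IL6 mRNA rose by 2.43 ± 0.31 in etoposide (adjusted p = 4.58e-05), 1.43 ± 0.30 in irradiated (adjusted p = 0.00218) and 0.99 ± 0.31 in thapsigargin cells (adjusted p = 0.0344), while in quiescent cells the difference was 0.85 ± 0.29 and was not called (adjusted p = 0.069). The quiescent difference was called by DESeq2 (0.84, adjusted p = 0.0238) and by edgeR without quiescent replicate 1 (1.03, adjusted p = 0.0337). The thapsigargin call was lost without either cycling library or without thapsigargin replicate 1, where the difference was 0.77 (adjusted p = 0.135). Between the senescent states, IL6 mRNA was 24.7 ± 0.117 CPM in irradiated and 49.4 ± 14.3 CPM in etoposide cells (SD, n = 3 each), a fold of 0.50 that was called (adjusted p = 0.0107).

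For IL6 footprints, cycling libraries held 4.21, 10.9 and 4.98 CPM, quiescent ones 3.89, 13.3 and 15.3, and irradiated ones 11.7, 9.89 and 17.4, ranges that overlapped. Etoposide libraries held 71.0, 38.9 and 86.0 CPM and thapsigargin ones 33.4 and 18.4, with the thapsigargin libraries between the irradiated and the etoposide ones. Footprints rose by 3.25 ± 0.50 in etoposide (adjusted p = 0.000201) and 1.91 ± 0.60 in thapsigargin cells (adjusted p = 0.019) against cycling cells. In irradiated cells the footprint difference was 0.93 ± 0.53 and was not called (adjusted p = 0.181), unlike the mRNA, though the change of the ratio of footprints to mRNA, -0.42 ± 0.61, was not called either (adjusted p = 0.949). The thapsigargin footprint call was lost without cycling replicate 1 or 3 or thapsigargin replicate 1 (1.37 in the last case, adjusted p = 0.243) and without the low-count filter (1.81, adjusted p = 0.0594).

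IL11 (ENSG00000095752, chr19:55364382-55370463), a ligand known in fibroblasts for its part in fibrosis, had a different order. Cycling libraries held 18.4 and 26.8 CPM of its mRNA, quiescent ones 7.26, 10.3 and 15.0, irradiated ones 5.01, 5.91 and 6.13, etoposide ones 25.3, 18.7 and 25.6, and thapsigargin ones 63.3 and 49.5. Both thapsigargin libraries lay above all others, the irradiated libraries lay below all others, and the etoposide and cycling libraries overlapped. IL11 mRNA fell by 1.99 on the log2 scale in irradiated cells (SE 0.27, adjusted p = 8.11e-05) and by 1.06 in quiescent cells (SE 0.26, adjusted p = 0.0151) against cycling cells. It rose by 1.32 ± 0.29 in thapsigargin cells (adjusted p = 0.00485), and in etoposide cells the difference was 0.04 ± 0.26 (adjusted p = 0.917). The quiescent call was lost without cycling replicate 2 (-0.76, adjusted p = 0.175) and in a fit of these libraries alone (-1.05, adjusted p = 0.0741), and the thapsigargin call was lost without cycling replicate 1 (1.07, adjusted p = 0.0665).

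IL11 footprints were few, with 192 counts over the 3 cycling libraries, 22 over the irradiated and 40 over the thapsigargin libraries. Cycling libraries held 8.12, 4.59 and 5.08 CPM, irradiated ones 1.06, 3.04 and 2.32, thapsigargin ones 11.0 and 10.5, and etoposide ones 11.5, 5.27 and 12.1, the last overlapping cycling cells. The irradiated and thapsigargin groups were apart from cycling, but neither the irradiated difference of -1.58 ± 0.73 (adjusted p = 0.101) nor the thapsigargin difference of 0.86 ± 0.71 (adjusted p = 0.344) was called. A fit of the irradiated and cycling libraries alone called the former (-1.60, adjusted p = 0.00181). Quiescent footprints were 1.06, 0.921 and 5.69 CPM, with replicate 3 inside the cycling range. The quiescent difference was -1.20 ± 0.57 (adjusted p = 0.156), and without that library it was -2.55 and called (adjusted p = 0.00143).

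LIF (ENSG00000128342, chr22:30240453-30246759) encodes leukaemia inhibitory factor, which signals through LIFR and IL6ST. Cycling libraries held 113.7 and 101.3 CPM of its mRNA, quiescent ones 107, 105.5 and 96.5, and irradiated ones 92.9, 104 and 81.7, all overlapping. Etoposide libraries held 183, 179 and 209 CPM and thapsigargin ones 200 and 241.5, above every library of the other states. LIF mRNA rose by 0.82 ± 0.13 in etoposide (adjusted p = 0.000378) and by 1.04 ± 0.15 in thapsigargin cells (adjusted p = 0.000232), and both calls held in every refit that left out 1 library. The irradiated difference was -0.21 ± 0.13 (adjusted p = 0.236).

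For LIF footprints, cycling libraries held 27.6, 25.6 and 30.6 CPM, irradiated ones 11.5, 14.4 and 14.8, etoposide ones 46.2, 51.4 and 57.5, and thapsigargin ones 66.3 and 44.6. The irradiated libraries lay below and the etoposide and thapsigargin libraries above all cycling ones. Quiescent libraries, at 10.3, 22.8 and 35.0 CPM, covered the whole cycling range. Footprints fell by 1.06 on the log2 scale in irradiated cells (SE 0.35, adjusted p = 0.0268) and rose by 0.89 ± 0.31 in etoposide (adjusted p = 0.0409) and 0.99 ± 0.37 in thapsigargin cells (adjusted p = 0.0408). These calls were close to the threshold: the etoposide call was lost in all 6 refits that left out 1 library, the irradiated one without cycling replicate 3 or any irradiated library (-1.14 to -0.97), and the thapsigargin one without any cycling library or without thapsigargin replicate 1 (0.64 in that case, adjusted p = 0.337). With counts taken without regard to strand the thapsigargin difference was 0.21 (adjusted p = 0.688), and such counting kept 64 and 47 of the 121 and 85 LIF counts of the thapsigargin Ribo-seq libraries.

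IL6ST (ENSG00000134352, chr5:55935095-55994963) encodes gp130, the signalling subunit that all ligands above share. Cycling libraries held 872 and 871 CPM of its mRNA, quiescent ones 439, 882 and 1030, irradiated ones 950, 904 and 1006, etoposide ones 1523, 1236 and 1236, and thapsigargin ones 763 and 517. Quiescent replicate 1 stood low in mRNA, and also in footprints at 117 CPM beside 283 and 282 in the other quiescent libraries. No mRNA difference from cycling cells was called, with 0.61 ± 0.27 in etoposide (adjusted p = 0.098) and -0.45 ± 0.29 in thapsigargin cells (adjusted p = 0.293). In the fit of the etoposide and cycling libraries alone the etoposide difference of 0.60 was called (adjusted p = 0.00215).

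IL6ST footprints separated the states further. Cycling libraries held 263, 314 and 324.5 CPM, irradiated ones 264.5, 258.5 and 209, etoposide ones 537, 508 and 518, and thapsigargin ones 112 and 99.2. All etoposide libraries lay above, and both thapsigargin libraries below, every library of the other states. Footprints rose by 0.79 ± 0.24 in etoposide cells (adjusted p = 0.021) and fell by 1.51 on the log2 scale in thapsigargin cells (SE 0.30, adjusted p = 0.00127). The thapsigargin call held in all 5 refits without 1 library, with values from -1.64 to -1.44, and the etoposide call was lost without cycling replicate 1 (0.69, adjusted p = 0.0925) or etoposide replicate 1 or 3, and without the low-count filter (0.75, adjusted p = 0.0633).

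IL1A (ENSG00000115008, chr2:112773925-112784493), the interleukin 1 form active as a precursor at the cell surface, was low in every state. Cycling libraries held 2.48 and 2.80 CPM of its mRNA, quiescent ones 2.92, 2.57 and 4.44, irradiated ones 0.986, 1.45 and 1.53, etoposide ones 3.36, 1.65 and 2.51, and thapsigargin ones 1.39 and 0.492. Etoposide libraries overlapped the cycling ones, while the irradiated and thapsigargin libraries lay below them. The etoposide difference was -0.08 ± 0.41 (adjusted p = 0.901) and was not called in the state where IL6 and IL1B were highest. The irradiated difference was -0.99 ± 0.43 (adjusted p = 0.0872), and it was called in a fit of these libraries alone (-1.02, adjusted p = 0.00614). In thapsigargin cells IL1A mRNA fell by 1.52 on the log2 scale (SE 0.47, adjusted p = 0.0313), a call lost without thapsigargin replicate 2 (-0.90, adjusted p = 0.192), without either cycling library and in a fit of these libraries alone (-1.47, adjusted p = 0.119).

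IL1A footprints summed to 67 counts over the 3 cycling libraries, 14 over the irradiated and 42 over the etoposide ones, and the 2 thapsigargin libraries had 0. The thapsigargin count of 0 allows a level of up to 0.804 CPM, by a floor of 3 counts over both libraries, and a level at least 2.50-fold lower than that of the 67 counts summed over the cycling libraries. Intervals and floors cover counting error only. The edgeR test called this difference (adjusted p = 0.0137).

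IL1B (ENSG00000125538, chr2:112829751-112836779), the form cut by caspase-1 before release, was called higher in etoposide and lower in irradiated than in cycling cells. The irradiated call was lost in some refits. Cycling libraries held 2.30 and 5.50 CPM of its mRNA, quiescent ones 2.32, 1.74 and 2.14, irradiated ones 1.59, 1.72 and 1.57, etoposide ones 12.4, 7.70 and 17.7, and thapsigargin ones 0.171 and 0.246. Every etoposide library lay above all others, both thapsigargin libraries lay below all others, and cycling replicate 2 stood well above cycling replicate 1. IL1B mRNA rose by 1.72 ± 0.37 in etoposide cells (adjusted p = 0.00295), fell by 1.23 in irradiated cells (SE 0.38, adjusted p = 0.0229) and fell by 4.15 in thapsigargin cells (SE 0.51, adjusted p = 8.85e-05), all on the log2 scale. The spread of the cycling libraries bore on the first pair: without cycling replicate 1 the etoposide rise was 1.19 (adjusted p = 0.0543), and without cycling replicate 2 the irradiated difference was -0.50 (adjusted p = 0.425). The irradiated call was also lost without irradiated replicate 1 or 3 (adjusted p = 0.0603 and 0.0611). Against quiescent cells the irradiated difference was -0.34 ± 0.36 and was not called (adjusted p = 0.559). The contrast of irradiated with etoposide cells, which uses no cycling library, was -2.95 ± 0.34 (adjusted p = 0.000133), and it stayed between -3.21 and -2.63 when any 1 library was left out.

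For IL1B footprints, cycling libraries held 4.01, 11.7 and 4.55 CPM, quiescent ones 3.60, 3.91 and 5.69, irradiated ones 3.37, 2.66 and 4.35, and etoposide ones 20.8, 13.2 and 33.3. The etoposide libraries again lay above all others, and footprints rose by 1.70 ± 0.41 (adjusted p = 0.00577), a call lost in a fit of these libraries alone (1.65, adjusted p = 0.0671). The 2 thapsigargin libraries held 1 IL1B footprint together, against 248 counts in cycling cells, a ratio of cycling to thapsigargin of 27.8 with a 95% exact counting interval from 4.94 to 1101. The edgeR call of this difference (adjusted p = 0.00835) was lost without thapsigargin replicate 1 (adjusted p = 0.0926). The irradiated difference of -0.98 ± 0.50 was not called (adjusted p = 0.138). Where IL1B and IL33 were highest, the macrophage and monocyte marker sum was highest too, at 1.92 to 3.56 CPM in etoposide Ribo-seq and at most 1.14 CPM elsewhere. None of the 8 markers reached 1 CPM in RNA-seq. In Ribo-seq CD14 alone did, in etoposide and irradiated cells, at up to 2.32 CPM. The part of such cells in these results was not tested.

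IL33 (ENSG00000137033, chr9:6215149-6257983) was near 0 outside the etoposide state. Cycling libraries had 3 and 0 RNA-seq counts, quiescent ones 1, 0 and 21, irradiated ones 15, 17 and 12, etoposide ones 237, 113 and 174, and both thapsigargin ones 0. All etoposide libraries lay far above the others, and 21 of the 22 quiescent counts came from replicate 3. With 3 cycling counts in all, the ratio of etoposide to cycling was 81.8 with a 95% exact counting interval from 27.9 to 398, and edgeR called the difference (adjusted p = 0.00125). The ratio of irradiated to cycling was 8.84 (interval 2.83 to 44.5) and was not called against the spread between libraries (adjusted p = 0.107), though it was in a fit of these libraries alone (3.03, adjusted p = 0.00404). Against etoposide cells, irradiated cells were lower by a log2 difference of -3.24 ± 0.71 (adjusted p = 0.00583), a call lost under DESeq2 (-3.29, adjusted p = 0.0599).

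IL33 footprints followed the same pattern, with 106 counts over the etoposide libraries, 8 over the quiescent, 8 over the irradiated, 1 over the cycling and 0 over the thapsigargin ones. In etoposide cells these were 7.85, 3.56 and 6.56 CPM, above the highest value of 0.887 CPM elsewhere. The ratio of etoposide to quiescent footprints was 42.5 with an interval from 20.8 to 101 (edgeR adjusted p = 1.86e-05). Because IL33 passed the Ribo-seq filter only through the etoposide libraries, this p-value is no separate support for its rise there. The irradiated footprints were also called above cycling (adjusted p = 0.0159) on these 8 counts against 1, and the call was lost without irradiated replicate 1 or 3. Counts of 0 in thapsigargin cells allow up to 0.0306 CPM of mRNA and 0.804 CPM of footprints, and no fold against the cycling counts of 3 and 1 is given.

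IL1R1 (ENSG00000115594, chr2:102070390-102179874) encodes the signalling receptor for both interleukin 1 alpha and beta. Cycling libraries held 125.5 and 193.6 CPM of its mRNA, quiescent ones 176, 184 and 244, irradiated ones 340, 232 and 320, etoposide ones 264, 173 and 259, and thapsigargin ones 44.5 and 53.3. The irradiated libraries lay above and the thapsigargin libraries far below the cycling ones, and the quiescent and etoposide libraries overlapped them. IL1R1 mRNA rose by 0.90 ± 0.24 in irradiated cells (adjusted p = 0.0107), a call lost without cycling replicate 1 (0.62, adjusted p = 0.155), and fell by 1.70 in thapsigargin cells (SE 0.26, adjusted p = 0.000533), a call that held in all 4 refits. The etoposide difference was 0.54 ± 0.24 (adjusted p = 0.0961), called without cycling replicate 2 (0.88, adjusted p = 0.0471) or etoposide replicate 2 (0.71, adjusted p = 0.0397).

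For IL1R1 footprints, cycling libraries held 14.6, 26.99 and 23.7 CPM, quiescent ones 12.2, 16.5 and 21.4, irradiated ones 39.7, 29.3 and 32.4, etoposide ones 37.5, 33.0 and 44.9, and thapsigargin ones 0 and 5.25. Both senescent states lay above every cycling library, but the differences of 0.64 ± 0.33 (irradiated, adjusted p = 0.135) and 0.82 ± 0.32 (etoposide, adjusted p = 0.0649) were not called, the etoposide one being called under DESeq2 (0.84, adjusted p = 0.0146) and both in fits of the compared libraries alone. In thapsigargin cells 10 footprints were counted against 748 in cycling cells, a ratio of cycling to thapsigargin of 8.37 with a counting interval from 4.53 to 17.5 (edgeR adjusted p = 0.00156). All 10 came from thapsigargin replicate 2.

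**Figure D2:**
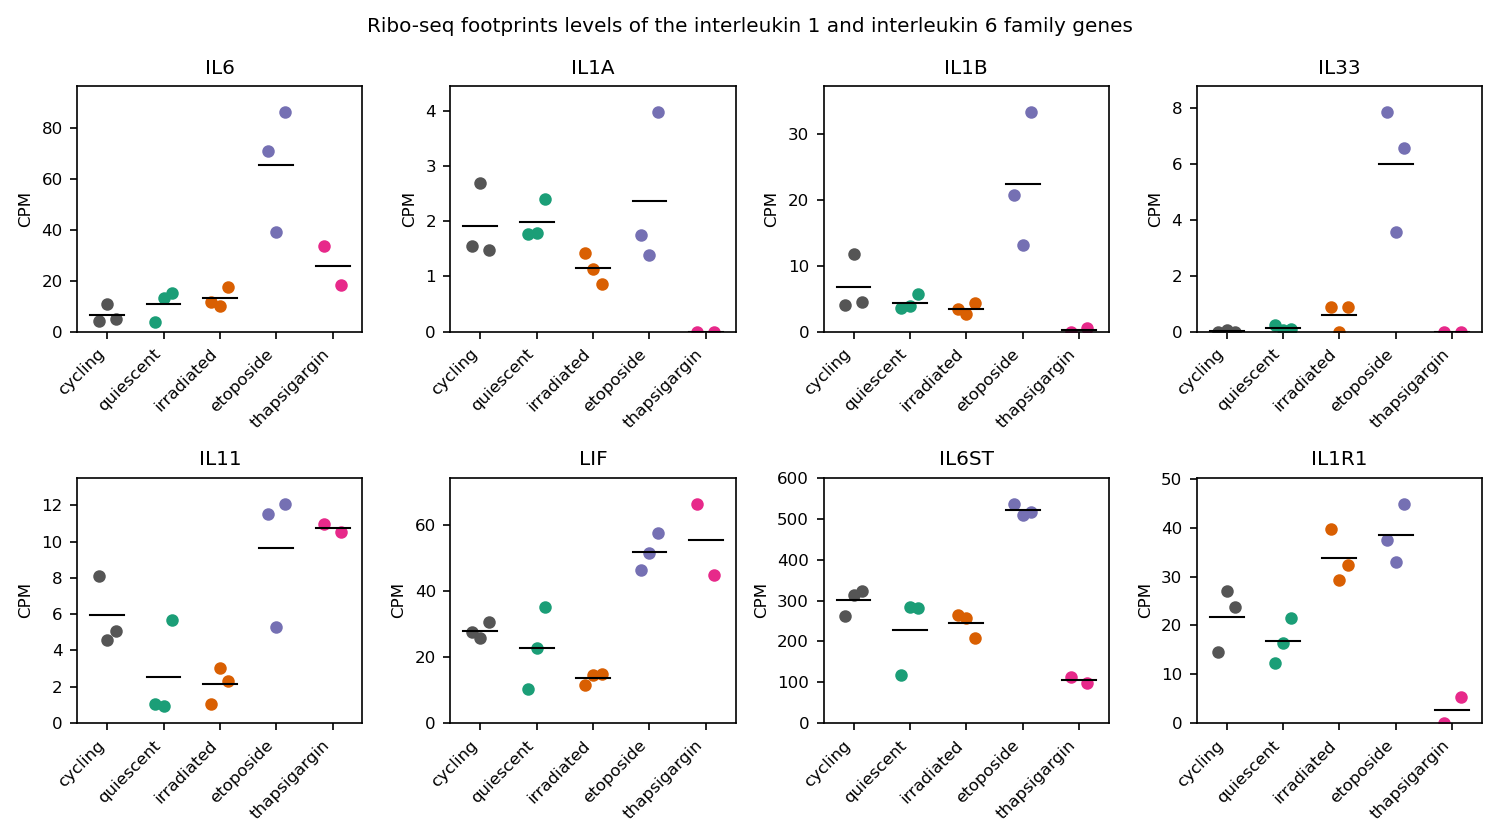
Ribo-seq level of each gene (vertical axis, CPM, linear from 0) in the 5 states; points are libraries and black lines are state means. The 2 thapsigargin libraries are lowest for IL6ST, IL1R1 and IL1B, and the 3 etoposide libraries are highest for IL6, IL1B, IL33 and IL6ST.

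Member counts were set against the share of all genes called in the same comparison. In RNA-seq 13289 genes were tested. Of the 8 members, 4 were called in etoposide against cycling cells, all higher, where 34.5% of all genes were called and 16.8% called higher. In irradiated cells 4 were called, 2 higher and 2 lower, where 34.9% of all genes were called, 16.2% higher and 18.8% lower. In quiescent cells 1 member, IL11, was called lower, with 15.6% of all genes called and 10.4% lower. In thapsigargin cells 6 were called, 3 higher and 3 lower, with 24.5% of all genes called, 11.7% higher and 12.8% lower. The median member change was 0.72 in etoposide, -0.04 in irradiated, 0.13 in quiescent and -0.98 in thapsigargin cells (-0.45, the IL6ST value, without IL33, which had 0 counts there), while the median of all genes lay between -0.03 and 0.03.

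In Ribo-seq, where 11762 genes were tested, 5 members were called in etoposide cells, all higher, with 33.9% of all genes called and 16.8% higher. The 5 include IL33, which passed the filter only through etoposide libraries, and the same holds for its Ribo-seq calls in other contrasts with etoposide cells. In irradiated cells 2 were called, IL33 higher and LIF lower, with 40.6% of all genes called, 19% higher and 21.6% lower. In thapsigargin cells 6 were called, 2 higher and 4 lower, with 44.6% of all genes called, 21.1% higher and 23.6% lower. No member was called in quiescent footprints by edgeR (22.4% of all genes called), 0 had an unadjusted p under 0.05, and DESeq2 called 0.

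Contrasts with etoposide cells called members in 1 direction only. Against etoposide cells, irradiated cells had lower mRNA of 5 members, IL6, IL1B, IL33, IL11 and LIF, where 22.6% of all genes were called in either direction and 12.9% lower. Footprints were lower for 6, those 5 and IL6ST, where 22.5% of all genes were called and 13.7% lower. No member was called higher. The footprint differences were -3.13 ± 0.60 for IL33 (adjusted p = 0.00299) and -2.67 ± 0.49 for IL1B (adjusted p = 0.00199), followed by IL6 at -2.32 ± 0.50 (adjusted p = 0.00518) and IL11 at -2.28 ± 0.73 (adjusted p = 0.037). The IL11 footprint call was lost without any irradiated library or without etoposide replicate 1 or 3 (-1.88 without irradiated replicate 1, adjusted p = 0.174), and the other 5 footprint calls held in all 6 such refits. The median member difference was -1.02 in mRNA and -2.11 in footprints, with 0.06 for all genes in both assays.

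The contact-inhibited state served as a further reference. Etoposide cells exceeded quiescent cells in mRNA of 6 members (41.7% of all genes called, 21.1% higher) and in footprints of 7, all but IL1A (35.8% called, 19% higher). The mRNA rises were 1.58 ± 0.25 for IL6 (adjusted p = 0.000272), 2.61 ± 0.34 for IL1B (adjusted p = 5.32e-05), 1.10 ± 0.24 for IL11 (adjusted p = 0.00237), 0.89 ± 0.12 for LIF (adjusted p = 7.14e-05) and 0.77 ± 0.24 for IL6ST (adjusted p = 0.0209), besides IL33. The IL6ST mRNA call was lost without etoposide replicate 1 (0.66, adjusted p = 0.0704), and the IL11 footprint call without quiescent replicate 2 (1.51, adjusted p = 0.0704) or etoposide replicate 1 or 3. Irradiated cells differed from quiescent cells in mRNA of 2 members, both lower (18.7% of all genes called, 9.71% lower): IL1A by a log2 difference of -1.32 ± 0.38 (adjusted p = 0.029) and IL11 by -0.93 ± 0.25 (adjusted p = 0.0196). Neither call held without irradiated replicate 1 (-1.15, adjusted p = 0.111, and -0.85, adjusted p = 0.0782), irradiated replicate 2 or quiescent replicate 3, and the IL1A call was also lost without irradiated replicate 3. IL6 mRNA was 0.58 ± 0.25 above quiescent cells and not called (adjusted p = 0.125), but was called without quiescent replicate 3 (0.93, adjusted p = 0.0136). In footprints 1 member, IL1R1, was called higher in irradiated than quiescent cells (14.6% of all genes called, 7.22% higher), at 1.03 ± 0.33 (adjusted p = 0.0497), a call lost without any irradiated library or without quiescent replicate 1 or 2 (0.83 to 1.10).

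**Figure D3:**
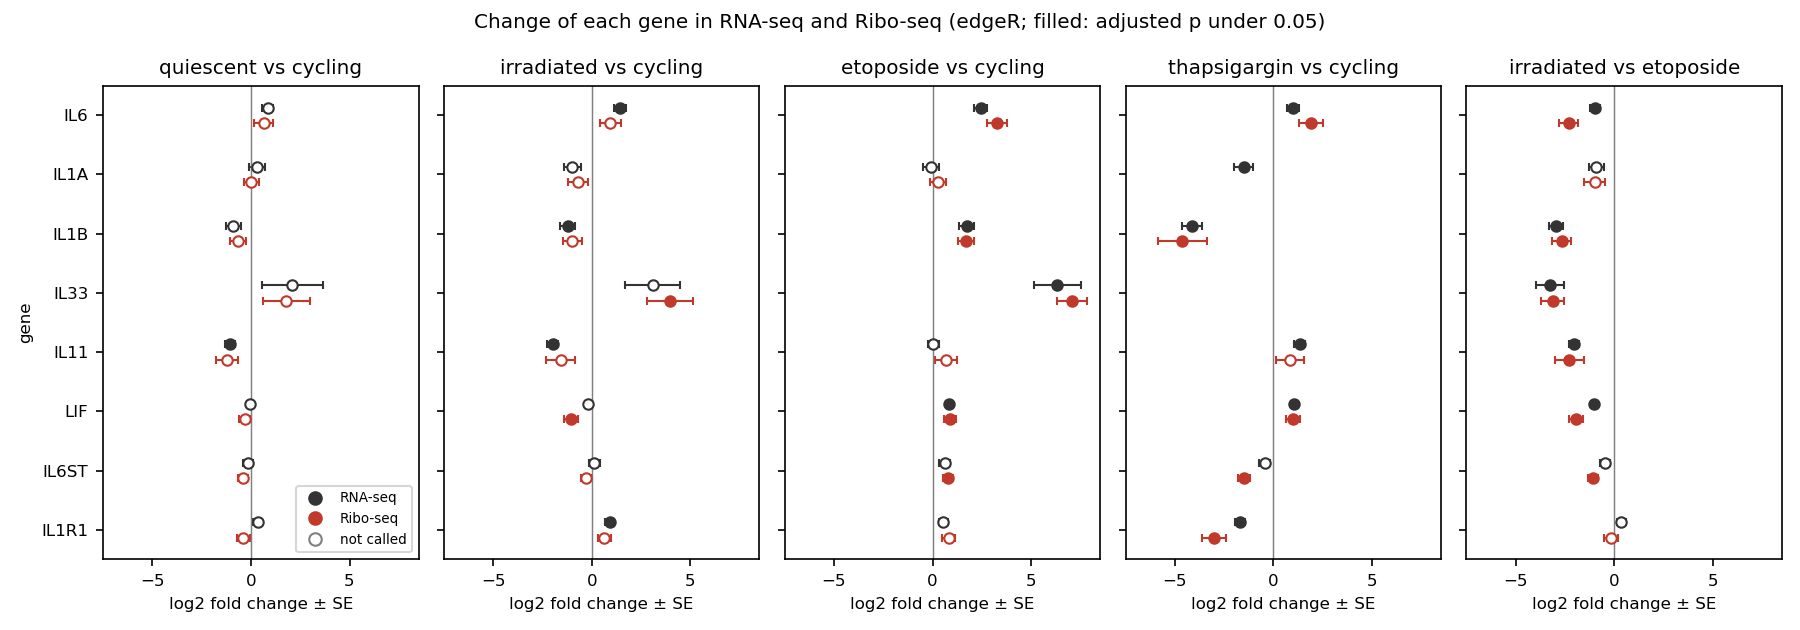
Log2 fold change ± SE (horizontal axis) of each gene in 5 comparisons, RNA-seq in black and Ribo-seq in red; filled points passed an adjusted p of 0.05, and values where a whole state had 0 counts are left out. In irradiated against etoposide cells all filled points lie below 0, and in thapsigargin against cycling cells the ligands IL6, IL11 and LIF lie above 0 while IL1B, IL6ST and IL1R1 lie below.

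Translational efficiency, the ratio of footprints to mRNA, asks whether ribosome occupancy moved apart from mRNA. It was tested as the interaction of assay and state over 27 libraries and 11711 genes. No member was called by edgeR in any of 5 comparisons. Over all genes 0.00854% were called in quiescent, 0.0512% in irradiated, 0.0683% in etoposide and 20.7% in thapsigargin cells against cycling, and 0% in irradiated against etoposide cells. At an unadjusted p under 0.05 there were 0, 1, 0, 1 and 2 members in that order. Fits of the compared states alone called 1 member in irradiated and 1 in thapsigargin against cycling cells and 2 in irradiated against etoposide cells. Over all genes those fits called 758, 1053 and 606 genes in the same order, so the shares above do not apply to them.

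The thapsigargin state held the member closest to the threshold. The IL6ST footprint-to-mRNA ratio differed by -1.12 ± 0.41 on the log2 scale (adjusted p = 0.0547), beside a median of -0.15 over all genes. It was called with all gene biotypes included (-1.21, adjusted p = 0.0382) and in a fit of these states alone (-1.15, adjusted p = 0.0254). A block for libraries of the same state and replicate number also gave a call by edgeR (-1.03, adjusted p = 0.00482). The difference was -1.35 without thapsigargin RNA-seq replicate 2 and -0.77 without thapsigargin RNA-seq replicate 1. IL1R1 differed by -1.38 ± 0.72 (adjusted p = 0.183), and leaving out thapsigargin Ribo-seq replicate 2, which held all its thapsigargin footprints, gave a call on 0 footprints (adjusted p = 0.0126). Without thapsigargin Ribo-seq replicate 1 the difference was -0.43 (adjusted p = 0.72). For the ligands with higher mRNA the differences were 0.86 ± 0.68 for IL6 (adjusted p = 0.389), -0.10 ± 0.38 for LIF (adjusted p = 0.88) and -0.51 ± 0.74 for IL11 (adjusted p = 0.668). Of the partners of IL6ST, LIFR (the LIF receptor) differed by -2.04 ± 0.63 (adjusted p = 0.0254). OSMR (the oncostatin M receptor) differed by -1.72 ± 0.49 (adjusted p = 0.016). These were the 2 called of 5 family receptors tested, IL6ST included, where 1503 of 11711 genes were called lower. For comparison in the same contrast, the stress genes DDIT3 and PPP1R15A rose in this ratio by 1.69 ± 0.30 (adjusted p = 0.000468) and 2.01 ± 0.26 (adjusted p = 1.34e-05). The Ribo-seq libraries of thapsigargin and cycling cells were counted against different gene lists, so a gene whose boundaries differ between them can take different counts from the same reads.

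The wider pathway was described with lists of ligands, receptors, signalling parts, NF-kappaB targets and regulators of cytokine mRNA. Their counts can be read against all genes, of which 16.8% were called higher in etoposide, 16.2% in irradiated and 11.7% in thapsigargin RNA-seq. In quiescent RNA-seq 689 of 13289 genes were called higher and 1379 lower. Lower calls made up 18.8% of genes in irradiated, 12.8% in thapsigargin and 2360 of 13289 in etoposide RNA-seq. Among receptors that pair with IL6ST, etoposide cells had higher mRNA of LIFR (122 ± 25.1 against 63.8 ± 1.46 CPM, SD, n = 3 and 2; rise 0.93 ± 0.24, adjusted p = 0.00926) and OSMR (rise 0.76 ± 0.24, adjusted p = 0.0235). IL27RA, which binds interleukin 27, fell by 0.82 in the same cells (SE 0.28, adjusted p = 0.0347). With IL6ST included, 2 of 5 receptors tested were higher and 1 lower, with a median of 0.61. In thapsigargin cells 3 of 5 receptors had lower mRNA and none higher (median -1.13; 12.8% of all genes lower), and in footprints all 6 tested were lower (23.6% of all genes), with IL11RA at 0 counts in thapsigargin cells. OSMR footprints fell from 122.6 to 17.5 CPM on average, a log2 difference of -2.80 ± 0.44 (adjusted p = 0.00024).

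Downstream of IL6ST, 4 of 10 genes were higher in mRNA and 1 lower in etoposide cells (median 0.06), and 4 were higher in irradiated cells (median 0.18). STAT3, the main transcription factor used by IL6ST, rose by 0.55 ± 0.16 in etoposide (adjusted p = 0.0182) and 0.74 ± 0.16 in irradiated cells (adjusted p = 0.00322). In thapsigargin cells none was higher and 2 were lower (median -0.09), namely SOCS3 at -1.92 ± 0.16 (adjusted p = 3.09e-06) and SOCS1 at -2.33 ± 0.31 (adjusted p = 0.00017). Both encode feedback inhibitors of JAK and STAT signalling that are themselves STAT targets.

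Downstream of IL1R1, 6 of 14 signalling genes had higher mRNA in irradiated cells (median 0.33), 4 in etoposide cells (median 0.14) and 3 in thapsigargin cells (median 0.28), and none was lower. IRAK3, an inhibitory kinase homologue of this pathway, rose by 1.05 ± 0.29 in irradiated (adjusted p = 0.0119) and 1.46 ± 0.29 in etoposide cells (adjusted p = 0.00163). TOLLIP, another inhibitor, rose by 0.80 ± 0.24 (adjusted p = 0.0194) and 0.91 ± 0.24 (adjusted p = 0.0102). In thapsigargin cells it rose by 0.95 ± 0.26 (adjusted p = 0.0167). Genes of the list other than these inhibitors were called higher too. IRAK2 rose by 0.79 ± 0.17 in etoposide (adjusted p = 0.00295) and 1.74 ± 0.19 in thapsigargin cells (adjusted p = 2.96e-05). TAB3 rose by 0.50 ± 0.13 in irradiated (adjusted p = 0.00848) and TRAF6 by 0.58 ± 0.14 in thapsigargin cells (adjusted p = 0.011). Of 8 genes for maturation and release, 1 was higher and 2 lower in irradiated cells (median 0.03) and 2 higher and 3 lower in etoposide cells (median -0.13). SYT1, a calcium sensor of secretion, fell by 1.69 in irradiated (SE 0.24, adjusted p = 0.000139) and 1.35 in etoposide cells (SE 0.24, adjusted p = 0.000737). CASP1, which cuts the IL1B precursor, rose by 0.87 ± 0.17 in irradiated cells (adjusted p = 0.0012). PYCARD, the inflammasome adaptor, fell by 0.80 in irradiated (SE 0.21, adjusted p = 0.0103) and 0.93 in etoposide cells (SE 0.21, adjusted p = 0.00418). IL18, another caspase-1 substrate and the remaining ligand of the interleukin 1 family that passed the filter, rose in etoposide cells from 0.518 ± 0.145 to 1.76 ± 0.613 CPM (rise 1.72 ± 0.45, adjusted p = 0.0095).

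The NF-kappaB target list had the largest median difference between the senescent states of the lists described. In etoposide cells 9 of 13 genes were higher and none lower than in cycling cells (median 2.50), in irradiated cells 2 were higher and 1 lower (median 0.18), and 11 of 13 were lower in irradiated than in etoposide cells (median -2.71). The chemokine CXCL1 was at 268.5 ± 132.8 CPM in etoposide and 3.64 ± 3.14 CPM in cycling cells, a rise of 6.26 ± 0.68 (adjusted p = 1.21e-05). CXCL8, the interleukin 8 gene, was at 289.9 ± 143.1 CPM in etoposide, 9.89 ± 9.50 in cycling and 6.26 ± 1.57 in irradiated cells. In irradiated cells the genes that rose were NFKBIZ (1.47 ± 0.23, adjusted p = 0.000232) and CCL2 (1.13 ± 0.19, adjusted p = 0.000473). Quiescent cells also had 2 higher and 1 lower (median 0.47), with rises of NFKBIZ (0.96 ± 0.22, adjusted p = 0.0107) and CCL2 (0.61 ± 0.19, adjusted p = 0.0415). The lower gene of irradiated and of quiescent cells was CCL20, with 23 counts in cycling, 1 in irradiated and 0 in quiescent cells. In thapsigargin cells 6 of 13 were higher and 1 lower (median 0.90). Among the higher were PTGS2 (3.30 ± 0.64, adjusted p = 0.0026) and BIRC3 (2.33 ± 0.36, adjusted p = 0.000545). CXCL8 also rose in thapsigargin cells, to 94.7 ± 35.3 CPM (3.29 ± 0.73, adjusted p = 0.00567).

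**Figure D4:**
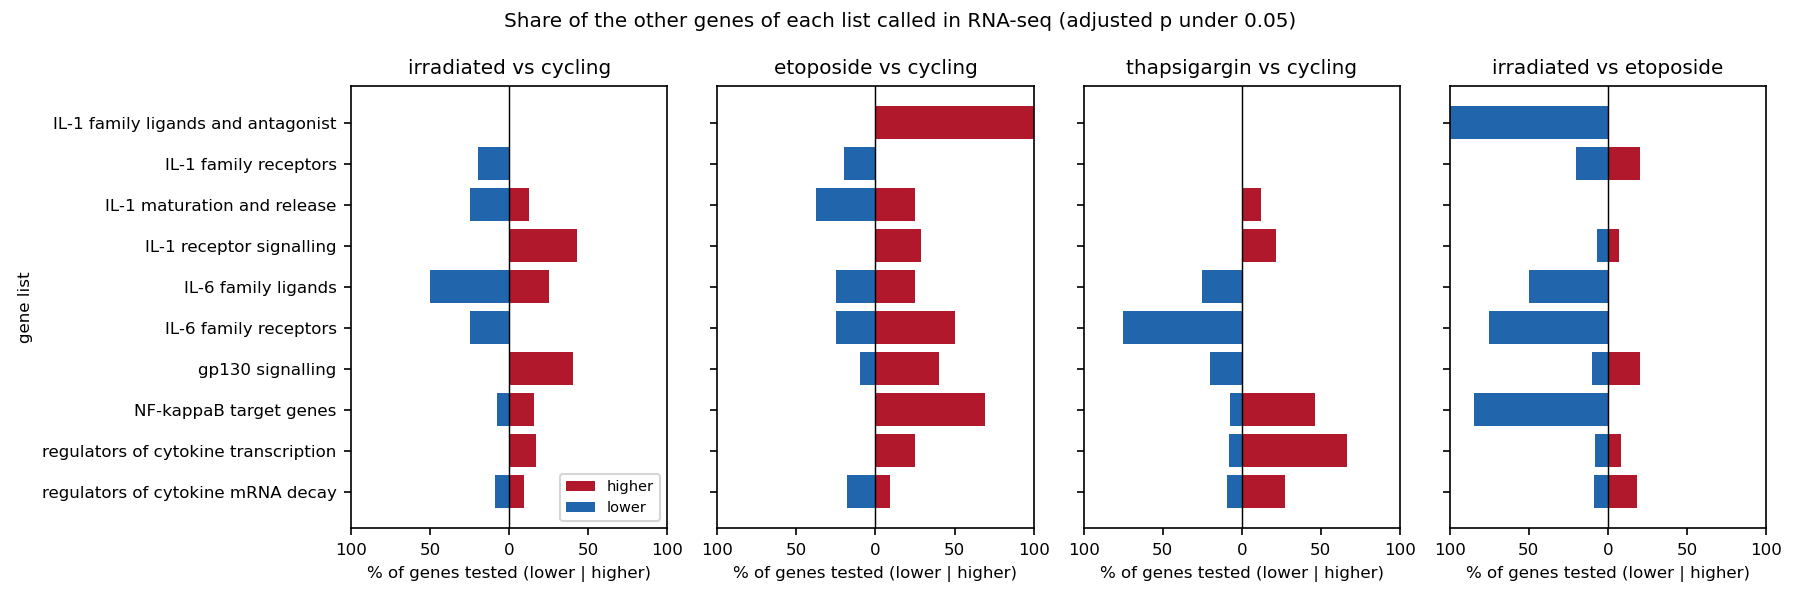
Share of the tested genes of each list, members left out, called higher (red, right) or lower (blue, left) in RNA-seq in 4 comparisons; the horizontal axis is percent of the genes tested, and the first list holds 1 gene, IL18, once the members are left out. The NF-kappaB target list is mostly higher in etoposide cells and mostly lower in irradiated than in etoposide cells, and transcription regulators are mostly higher in thapsigargin cells.

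Genes that regulate cytokine transcription moved most in thapsigargin cells, where 8 of 12 had higher mRNA and 1 lower (median 1.09), against 3 higher in etoposide (median 0.15), 2 in irradiated (median 0.29) and 4 in quiescent cells (median 0.35). ATF3, a stress-induced factor, rose in every state against cycling, by 0.59 ± 0.15 in quiescent (adjusted p = 0.0159), 3.16 ± 0.16 in thapsigargin (adjusted p = 9.63e-08), 1.95 ± 0.15 in etoposide (adjusted p = 4e-07) and 1.41 ± 0.15 in irradiated cells (adjusted p = 1.02e-05). The NF-kappaB subunit genes NFKB1 and RELB rose by 1.74 ± 0.12 (adjusted p = 6.38e-07) and 2.14 ± 0.27 (adjusted p = 0.000105) in thapsigargin cells. CEBPB, a C/EBP factor that binds the IL6 promoter, rose by 0.67 ± 0.13 in etoposide (adjusted p = 0.00113), 0.69 ± 0.13 in irradiated (adjusted p = 0.000866) and 0.44 ± 0.13 in quiescent cells (adjusted p = 0.0302). Of 11 genes for decay of cytokine mRNA, 3 were higher and 1 lower in thapsigargin cells (median 0.30). ZFP36, which binds AU-rich elements and speeds decay, fell by 2.60 (SE 0.24, adjusted p = 9.7e-06), and ARID5A, which stabilises IL6 mRNA, rose by 1.47 ± 0.25 (adjusted p = 0.00101). In etoposide cells 1 was higher, the RNase gene ZC3H12A (1.41 ± 0.25, adjusted p = 0.000766), and 2 were lower (median -0.10).

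The genes whose RNA-seq profile was most like each member's were found by Pearson's r of log2 CPM over the 13 libraries. These correlations describe 5 states and share libraries and depth. For IL6 they were NAMPT (r = 0.967), P2RY1 (0.964) and RELCH (0.962), and for IL1B CFTR (0.973), PTGES (0.961) and TIMP1 (0.948). IL33 was most like ENTPD1 (0.974), ANO3 (0.953) and IL13RA2 (0.949). IL11 was most like SLC39A14 (0.985), TMEM39A (0.978) and EIF2AK3 (0.977), which encodes the stress kinase PERK of the endoplasmic reticulum. For LIF they were LIPG (0.941), PISD (0.938) and PPIF (0.937), for IL6ST TWSG1 (0.95), CPE (0.945) and GALC (0.943), for IL1R1 CFAP53 (0.979), GRK5 (0.979) and ARHGAP28 (0.968), and for IL1A CPSF3 (0.923), FAP (0.909) and POLR2B (0.904). No member was among the 3 genes nearest to another member.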

How the data were processed

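The values deposited by the authors are whole-number read counts for each gene, in the layout that STAR writes, with one column ignoring strand and one for each strand. Software named in the submitters' processing notes includes STAR 2.7.10b and DESeq2 1.36.0, with the build hg38, and the annotation is not given in the sources used here. RNA-seq counts were read from the reverse-strand column and Ribo-seq counts from the forward-strand column, the strand that held most reads in each assay. The opposite strand held 3.56 to 10.7% of the counts of both strands. Unmapped reads were 1.35 to 40.6% of a library, multimapped reads 9.43 to 66.9% and reads outside genes 1.45 to 12.8% of the unique ones, and none of these entered library sizes or tests. Of 27 tables, 15 list 62703 gene IDs and 12 list 60664. Only the 60534 IDs in all of them were used, so SOD2, whose ID differs, was not. The labels give conflicting RNase times for Ribo-seq, and titles were used to tell the assays of the thapsigargin libraries apart.

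Counts of protein-coding genes (RefSeq, GRCh38.p14) that passed filterByExpr went into edgeR 4.0.16 under R 4.3.3 (quasi-likelihood F test, robust, TMM), with all 5 states in one fit per assay, 7 comparisons per assay and 5 for translational efficiency. Tests were two-sided, with Benjamini-Hochberg adjustment over all genes tested. The biological coefficient of variation was 0.159 in RNA-seq and 0.168 in Ribo-seq. The fits were tested on simulated data. Alternatives were DESeq2 1.42.0, RLE scaling, no low-count filter, the compared groups alone, unstranded counts, all biotypes, leaving out each library and a replicate block. Genes named besides the members were taken from up to 3 called genes per list with the largest change, from the state genes, and from the 3 genes nearest to each member by r on log2 CPM (prior count 2). Counts of 0 were bounded by 3 counts over a state. The members and lists were chosen with earlier results of these data known, so no list count is independent support.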

Additional observations from a re-analysis of the deposited data

Results flagged for a closer look

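Counts on the strand opposite to the gene, which the comparisons do not use, exceeded those of the cycling libraries at a pair of members. For IL6, opposite-strand RNA-seq counts summed to 49 in irradiated cells (19, 17 and 13) and 83 in etoposide cells (25, 34 and 24), above the 11 and 2 of the cycling libraries. They were 1.08 to 2.94% of all IL6 counts in these libraries and 1.11 to 4.23% in cycling cells, so the opposite strand kept about the same share of the gene. For IL6ST, thapsigargin cells had 32 such counts (12 and 20) against 8 and 1 in cycling cells, at most 0.0680% of the gene's counts. Scaled for depth these were 0.294 and 0.350 CPM against 0.273 and 0.0485 CPM, so thapsigargin replicate 1 lay close to cycling replicate 1.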

How the results depend on the processing

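Apart from leaving out libraries, the alternatives kept direction and call in 372 of 384 member values in RNA-seq, 357 of 374 in Ribo-seq and 39 of 42 in translational efficiency. Members called in quiescent against cycling RNA-seq went from 1 to 2 under DESeq2 and to 0 with the compared groups alone. In Ribo-seq, etoposide against cycling gave 3 without the low-count filter, irradiated against cycling 4 with the compared groups alone, and irradiated against quiescent 0 without the filter, with unstranded counts and with all biotypes. In translational efficiency 1 member was called in thapsigargin cells with all biotypes, with the compared groups alone and with the replicate block, and the compared groups alone gave 1 in irradiated against cycling and 2 in irradiated against etoposide cells. The cause was not tested.

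Leaving out 1 library gave, in RNA-seq, 0 to 2 members called in quiescent, 3 to 4 in irradiated, 3 to 5 in etoposide and 3 to 5 in thapsigargin against cycling cells, 0 to 3 in irradiated and 5 to 6 in etoposide against quiescent cells, and 5 in irradiated against etoposide cells. In Ribo-seq the ranges were 0 to 1, 0 to 2, 3 to 4, 2 to 5, 0 to 1, 6 to 7 and 5 to 6 in the same order, and in translational efficiency 0 to 1 for thapsigargin and 0 elsewhere. Directions of uncalled differences turned in some of these refits. In RNA-seq these were etoposide against cycling for IL11 (-0.21 to 0.33) and IL1A (-0.34 to 0.15), and quiescent against cycling for LIF (-0.14 to 0.02), IL6ST (-0.40 to 0.13) and IL33 (-1.57 to 6.17). In Ribo-seq they were quiescent against cycling for IL1A (-0.13 to 0.39), IL1B (-0.94 to 0.04) and LIF (-0.76 to 0.04), irradiated against quiescent for IL6 (-0.15 to 0.61), IL6ST (-0.23 to 0.29) and IL11 (-0.79 to 0.96), and IL1A in etoposide cells against cycling (-0.31 to 0.63) and quiescent cells (-0.35 to 0.55). In translational efficiency they were IL1B (-6.01 to 0.35) and LIF (-0.43 to 0.12) in thapsigargin cells.

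The main fits did not pair samples by replicate number. Deviations were correlated over 0.1 in 9 of 23 same-numbered RNA-seq pairs of different states and in 13 of 44 differently numbered ones. In Ribo-seq they were in 6 of 26 and 5 of 52 such pairs. These counts cannot show whether the numbers pair the samples. With a replicate block the IL11 difference of etoposide from cycling RNA-seq was -0.08. RNA-seq and Ribo-seq libraries of the same state and number were correlated over 0.1 in 6 of 13 pairs, and with a block for them the IL6ST translational efficiency difference in thapsigargin cells was -1.03 and was called by edgeR (adjusted p = 0.00482). Over all genes, the compared groups alone moved the calls from 2068 to 853 (RNA-seq, quiescent) and 3254 to 1506 (RNA-seq, thapsigargin), and from 3986 to 6022 (Ribo-seq, etoposide) and 2652 to 4135 (Ribo-seq, irradiated against etoposide). In translational efficiency they moved from 2427 to 1053 in thapsigargin, 6 to 758 in irradiated and 8 to 28 in etoposide cells, and 0 to 606 in irradiated against etoposide cells, where DESeq2 gave 32 in irradiated, 40 in etoposide and 6 in irradiated against etoposide cells. Depth limited the Ribo-seq values of IL1A, IL1B, IL33 and IL1R1 in thapsigargin cells, which rest on 0, 1, 0 and 10 counts.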
